A study of Mus musculus with 11 samples.

Results

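Transcripts of the L6 family (transmembrane 4, type L6) were measured in the small intestine of mice, for the 4 genes Tm4sf4, Tm4sf5, Tm4sf20 and Tm4sf1 of the 24294 gene symbols in the data. The genes were taken by symbol, and the family was selected on FPKM values of these same libraries, with the earlier result for Tm4sf4 against ND known. Differences between groups are therefore given as a description without a p-value. The 11 libraries form 3 groups, called HLJDD (n = 4), HFD (n = 4) and ND (n = 3) in the labels, and HLJDD has the initials of the herbal mixture in the title, Huang Lian Jiedu Decoction, tried there in obese mice. The letters ND and HFD are not spelled out in the labels. The diet of the HLJDD mice, the strain, sex and age of the mice, the dose and the stretch of small intestine do not appear in the labels used. Nothing in the labels says that each library is a separate animal, so p-values for other genes reflect the spread of these libraries alone, and that spread may be technical.

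L6 proteins cross the membrane 4 times, as tetraspanins do, but belong to a separate family and lack the tetraspanins' signature cysteine motif in the large outer loop. They sit with integrins and other receptors in clusters of the cell surface and have been studied mainly in tumour, liver and endothelial cells. TM4SF4 was described in rat and human as a protein of intestine and liver that slows growth of dense cultures. TM4SF5 has been studied in human liver tumours, where it acts on adhesion and on lysosomal arginine sensing, and TM4SF20 in human cells holds back cleavage of the transcription factor CREB3L1 until ceramide turns its orientation in the membrane. TM4SF1, the first member found, is an antigen of carcinomas and of endothelial cells.

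Tm4sf4 and Tm4sf1 stand next to each other on mouse chromosome 3, which is why their promoters are shown, beside that of Tm4sf5, the other abundant member with a RefSeq promoter. In the GENCODE annotation of GRCm38, Tm4sf1 (minus strand, 57285611 to 57301988) and Tm4sf4 (plus strand, 57425314 to 57441677) are separated by 123325 bases with no other protein-coding gene in between. Tm4sf5 is on chromosome 11 (plus strand, 70505244 to 70511178) and Tm4sf20 on chromosome 1 (minus strand, 82756649 to 82768461). All 4 are protein-coding. No annotated gene overlaps any of the 4, and no run of 31 bases is shared between their exons. The sequences below are credited to RefSeq (GRCm38.p6) and run 5′ to 3′ on each gene's own strand, within the 250 bases before the RefSeq start. Bases that GENCODE places in an exon were left out. Capitals mark a motif match.
Tm4sf4 (chr3:57425160-57425313, plus strand): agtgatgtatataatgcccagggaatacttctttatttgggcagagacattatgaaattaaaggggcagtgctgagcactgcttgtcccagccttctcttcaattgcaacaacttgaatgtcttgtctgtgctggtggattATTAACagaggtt
Tm4sf5 (chr11:70505024-70505243, plus strand): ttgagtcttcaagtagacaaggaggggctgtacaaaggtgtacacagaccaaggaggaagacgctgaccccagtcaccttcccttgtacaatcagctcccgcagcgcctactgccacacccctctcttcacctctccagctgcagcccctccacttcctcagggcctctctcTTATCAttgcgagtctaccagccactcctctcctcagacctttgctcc
Tm4sf1 (chr3:57301989-57302238, minus strand): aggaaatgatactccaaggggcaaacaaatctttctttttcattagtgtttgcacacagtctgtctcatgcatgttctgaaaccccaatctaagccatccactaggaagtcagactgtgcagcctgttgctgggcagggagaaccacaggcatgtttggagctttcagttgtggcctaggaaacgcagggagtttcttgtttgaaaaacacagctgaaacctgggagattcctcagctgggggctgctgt
Both strands of these windows were searched for the TATA box letters TATAAA, for letters of GATA factors (TGATAA or, equally counted, AGATAA), for TTTATNG of CDX factors, for GTTAAT, which HNF1 binds, for CAAAGTCCA, which HNF4 binds, and for the nuclear receptor repeat DR1. The capitals in Tm4sf4 are the HNF1 letters on the opposite strand, at -109 to -104 from the RefSeq start, letters held by 6.43% of the 32851 mouse promoters in the table. Tm4sf4 also matched the CDX letters at -46 to -40, in the stretch not printed, as did 9.81% of promoters. The capitals in Tm4sf5 are the GATA letters on the opposite strand at -78 to -73, found in 16.6% of promoters. The Tm4sf1 window held none of these letters, and a match or its lack is a description of these windows, not of any factor's binding.

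Levels are in FPKM as deposited, fragments divided by gene length and by library size, so genes can be compared. A total of 30100481 to 37940645 reads per library fell in genes. Transcripts of the mitochondrial genome took 40.7% of the reads in HLJDD replicate 2 and 32.4% in HFD replicate 1, against 10.4% to 19.3% in the other 9 libraries, and values without these 2 libraries, some of them added after seeing the data, stand beside results they touch. Differences are between group means of log2(FPKM + 1), with the standard error (SE) of the limma fit over the 10764 genes that reached 1 FPKM in 3 or more libraries, and this scale understates the change of low genes. The median difference of all those genes was 0.061 for HLJDD minus HFD, -0.205 for HFD minus ND and -0.127 for HLJDD minus ND. Scaling each library by its median ratio to the others brought it to -0.001, -0.011 and 0.004, so scaled values stand beside the deposited ones. All 4 L6 genes passed the filter. In bulk tissue, fewer cells of a type and less RNA per cell cannot be told apart.

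Tm4sf4 was the member with the widest gap between groups. Its level was 511.4, 416.2, 542.7 and 496.4 FPKM in HLJDD, 675.4, 409.0, 589.9 and 683.7 FPKM in HFD, and 50.6, 54.4 and 46.9 FPKM in ND. The means were 491.7 ± 53.9 FPKM in HLJDD (SD, n = 4), 589.5 ± 127.6 FPKM in HFD (SD, n = 4) and 50.6 ± 3.72 FPKM in ND (SD, n = 3). Every HLJDD and HFD library lay above every ND library, while HLJDD and HFD overlapped. The lowest HLJDD library was 7.66 times the highest ND library, and the lowest HFD library 7.52 times. Between HFD and ND the groups did not overlap for 9.57% of the 10764 genes with HFD higher, and between HLJDD and ND for 8.30% with HLJDD higher. The log2 difference was 3.49 (SE 0.19) for HFD minus ND and 3.25 (SE 0.19) for HLJDD minus ND, comparisons that share the ND libraries. After scaling they were 3.73 (SE 0.21) and 3.41 (SE 0.21). Ranked among the 10764 genes of a library, Tm4sf4 stood in the top 1.04% to 1.28% in HLJDD and 0.557% to 1.54% in HFD, against 10.7% to 12.6% in ND. The ND values came from 2441 to 2789 reads, so counting error is small beside the gap.

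**Figure D1:**
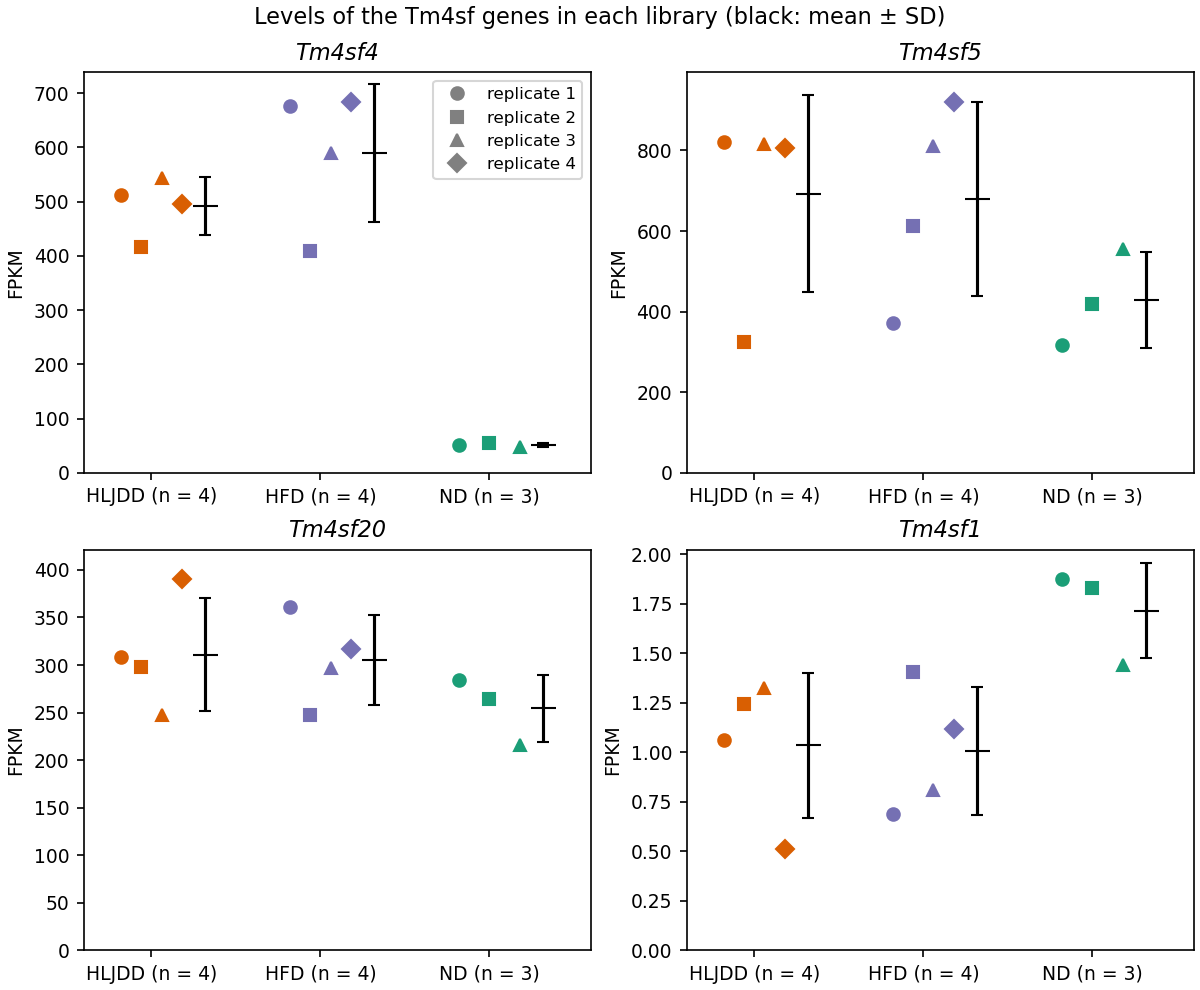
FPKM of each L6 gene (vertical axes, linear, from 0) in each of the 11 libraries, by group. Points are single libraries with a shape per replicate number, black bars are the mean ± SD; Tm4sf4 sits at 409.0 to 683.7 FPKM in HLJDD and HFD and at 46.9 to 54.4 FPKM in ND, and Tm4sf5 drops in HLJDD replicate 2 (325.9 FPKM) and HFD replicate 1 (373.0 FPKM).

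Tm4sf5 was the most abundant member in 9 of the 11 libraries, and its libraries differed by up to 2.52-fold within a group while the group means differed by up to 1.61-fold. It had 820.7, 325.9, 817.1 and 806.3 FPKM in HLJDD, 373.0, 612.8, 810.5 and 920.3 FPKM in HFD, and 316.1, 417.8 and 554.6 FPKM in ND. The 2 low libraries, HLJDD replicate 2 and HFD replicate 1, are those with the highest mitochondrial shares, and they bring HLJDD and HFD into the range of ND. The other 3 HLJDD and 3 HFD libraries all lay above the ND libraries. That subset leaves out the libraries low for this gene, and the share of all genes that separate in it was not computed. Means were 692.5 ± 244.5 FPKM in HLJDD (SD, n = 4), 679.1 ± 240.5 FPKM in HFD (SD, n = 4) and 429.5 ± 119.7 FPKM in ND (SD, n = 3). The log2 difference was 0.62 (SE 0.38) for HFD minus ND and 0.63 (SE 0.38) for HLJDD minus ND. Without the 2 libraries these were 0.88 and 0.96. Scaling raised the level of the low libraries to 428.0 FPKM (HLJDD replicate 2) and 486.5 FPKM (HFD replicate 1), still the lowest of their groups, and the groups still overlapped. The part of the mitochondrial share in these low values was not tested.

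Tm4sf20 had group means within 1.22-fold of each other. It had 308.0, 297.8, 247.1 and 390.3 FPKM in HLJDD, 361.3, 246.9, 296.5 and 317.1 FPKM in HFD, and 284.1, 263.9 and 215.7 FPKM in ND. All 3 groups overlapped, and unlike Tm4sf5 it was not low in HLJDD replicate 2 or HFD replicate 1. Means were 310.8 ± 59.3 FPKM in HLJDD (SD, n = 4), 305.4 ± 47.5 FPKM in HFD (SD, n = 4) and 254.6 ± 35.2 FPKM in ND (SD, n = 3). The log2 difference was 0.26 (SE 0.19) for HFD minus ND and 0.28 (SE 0.19) for HLJDD minus ND, and 0.50 (SE 0.25) and 0.44 (SE 0.25) after scaling. Single libraries moved these values: HFD minus ND was 0.17 without HFD replicate 1 and 0.14 without ND replicate 3. In the same way HLJDD minus ND was 0.16 without HLJDD replicate 4 and 0.16 without ND replicate 3. Mff, a mitochondrial fission factor gene 4254 bases from Tm4sf20, had 22.3 ± 4.14 FPKM in HLJDD, 21.0 ± 0.254 FPKM in HFD and 23.5 ± 0.0850 FPKM in ND (SD, n = 4, 4 and 3).

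Tm4sf1 was the least abundant of the 4 and lay in the opposite direction to its neighbour Tm4sf4. It had 1.06, 1.24, 1.32 and 0.510 FPKM in HLJDD, 0.686, 1.41, 0.808 and 1.12 FPKM in HFD, and 1.87, 1.83 and 1.44 FPKM in ND. All HLJDD and HFD libraries were below all ND libraries as deposited, by a narrow margin at 1.41 FPKM in HFD replicate 2 and 1.44 FPKM in ND replicate 3, and the groups overlapped after scaling. As deposited, 32.9% of all genes had HFD below ND with no overlap and 21.3% had HLJDD below ND, so this pattern was common. The log2 difference was -0.45 (SE 0.17) for HFD minus ND and -0.43 (SE 0.17) for HLJDD minus ND, and -0.31 and -0.32 after scaling. With a pseudocount of 0.1 in place of 1 it was -0.75 and -0.74, since the larger pseudocount compresses differences of genes near 1 FPKM. Its values rested on 75 to 267 reads. Counting error did not cover the spread within a group: the exact 95% Poisson interval was 0.401 to 0.640 FPKM in HLJDD replicate 4 and 1.15 to 1.52 FPKM in HLJDD replicate 3. Such intervals cover counting error only.

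The gene on the other side of Tm4sf4 did not pass the test. Wwtr1, which encodes the Hippo pathway co-activator TAZ and lies 13971 bases past Tm4sf4, had 1.26 ± 0.403 FPKM in HLJDD (SD, n = 4), 1.31 ± 0.485 FPKM in HFD (SD, n = 4) and 1.79 ± 0.751 FPKM in ND (SD, n = 3). Its limma adjusted p over all genes was 0.387 for HFD against ND and 0.417 for HLJDD against ND. Tm4sf19, a further L6 gene on chromosome 16, was at the limit of detection. It had 5 reads in all, over 4 of the 11 libraries, and 3 reads in a library would correspond to 0.0307 to 0.0387 FPKM, so no difference was detectable at this depth.

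**Figure D2:**
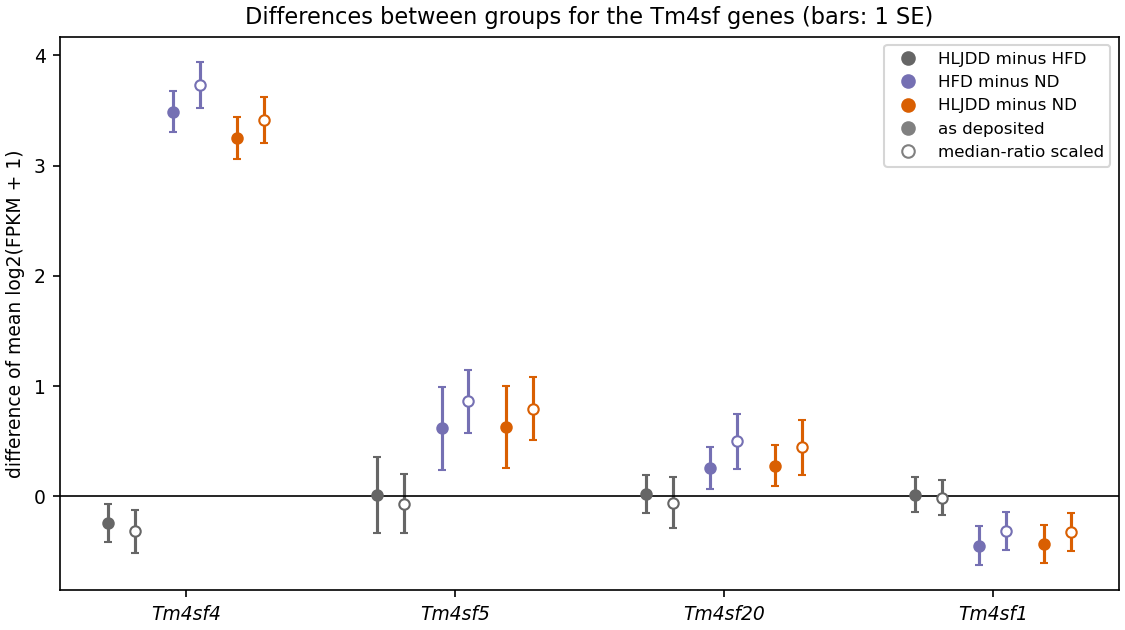
Difference of group means of log2(FPKM + 1) for the 4 L6 genes (vertical axis) in the 3 comparisons, with bars of 1 SE; filled points use the deposited FPKM and open points the median-ratio scaled values. Tm4sf4 stands at 3.25 to 3.73 against ND, and every HLJDD minus HFD difference lies between -0.32 and 0.02.

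The comparison of HLJDD with HFD is the one nearest to the decoction named in the title. The diet of the HLJDD mice is not given, so decoction and diet cannot be told apart in it. The 2 groups overlapped for all 4 L6 genes, while 0.483% of all genes had HLJDD above HFD with no overlap and 0.548% had it below. Tm4sf4 had the only difference of more than 1 SE, -0.24 (SE 0.17), or -0.32 (SE 0.19) after scaling. Its ratio of mean levels was 0.834, and its approximate 95% interval on the log2 scale ran from -0.58 to 0.10. It was -0.09 (SE 0.17) without the 2 libraries of high mitochondrial share and -0.40 (SE 0.15) without HFD replicate 2, the HFD library with the least Tm4sf4. Tm4sf5 differed by 0.01 (SE 0.35), Tm4sf20 by 0.02 (SE 0.17) and Tm4sf1 by 0.02 (SE 0.16), and these 3 turned negative after scaling, at -0.07, -0.06 and -0.01. The sign for Tm4sf5 depended on single libraries, since it was 0.34 without HLJDD replicate 2 and -0.25 without HFD replicate 1. The interval for Tm4sf5, -0.67 to 0.69, leaves room for a difference of either sign, and that for Tm4sf20 was -0.32 to 0.36. Across the 10764 genes limma called 0.00% at an adjusted p under 0.05, 186 genes had an unadjusted p under that value, and limma-voom on the recovered reads called 0.

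The make-up of the family differed between ND and the other groups. Tm4sf4 supplied 33.6 ± 4.66% of the summed FPKM of the 4 genes in HLJDD (SD, n = 4), 37.6 ± 7.01% in HFD (SD, n = 4) and 6.95 ± 1.07% in ND (SD, n = 3). The sum was 1496 ± 305 FPKM in HLJDD, 1575 ± 292 FPKM in HFD and 736 ± 83.1 FPKM in ND. In ND, Tm4sf5 was first and Tm4sf20 second in every library, with Tm4sf4 far behind. In HLJDD and HFD Tm4sf4 passed Tm4sf20 in all 8 libraries, with a ratio of 1.27 to 2.20, against 0.178 to 0.218 in ND. Tm4sf4 also passed Tm4sf5 in HLJDD replicate 2 (ratio 1.28) and HFD replicate 1 (ratio 1.81), and stood at 0.616 to 0.743 of it in the other 6. Since these are ratios within a library, the scaling does not touch them.

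**Figure D3:**
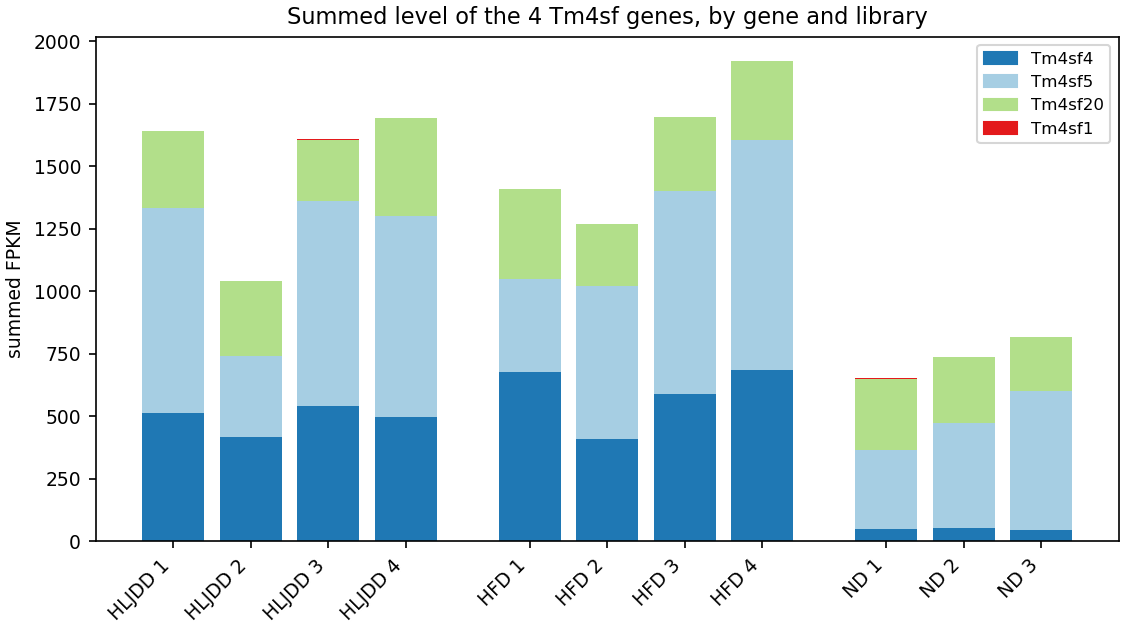
Summed FPKM of the 4 L6 genes (vertical axis, from 0) in each library, split by gene; numbers after the group are replicates, and Tm4sf1, at most 0.287% of a sum, is too thin to see. Tm4sf4 makes up 29.3% to 47.9% of each HLJDD and HFD bar and 5.73% to 7.75% of each ND bar.

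Genes that mark the ends of the small intestine differed between ND and the other groups, too. Fabp6, which carries bile acids in ileal cells, had 0.212 to 2.27 FPKM in HLJDD and 1.26 to 4.31 FPKM in HFD, against 9822, 6702 and 396.8 FPKM in ND replicates 1, 2 and 3. Slc10a2, the ileal bile acid importer, had 0.0729 to 0.432 FPKM in HLJDD, 0.146 to 0.551 FPKM in HFD and 7.70 to 256.0 FPKM in ND. Gata4, a factor of the jejunum and duodenum, had 26.4 to 36.6 FPKM in HLJDD, 25.9 to 35.7 FPKM in HFD and 9.75, 15.5 and 24.7 FPKM in ND replicates 1, 2 and 3. Of 10 proximal gut markers past the filter, 8 rose and 1 (Slc40a1, named after its value was seen) fell in each comparison with ND. Of 10 distal markers past it, 7 fell in HFD and 8 in HLJDD, and 1 (Nr0b2, also named afterwards) rose in both, by limma with adjusted p over all genes. Of all genes, 5.06% were called higher and 11.5% lower in HFD, and 4.10% and 7.79% in HLJDD. Slc10a2 and Slc40a1 passed the filter only through ND, and Nr0b2 only through HFD and HLJDD, so their calls are a description only. Without ND replicate 1 or without ND replicate 2, 5 distal markers were called in each comparison.

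Set beside these markers, the ND libraries did not move as 1 block. ND replicate 3, with the least Fabp6 and the most Gata4 of ND, had the most Tm4sf5 (554.6 FPKM) and the least Tm4sf20 (215.7 FPKM). ND replicate 1, with the most Fabp6 and the least Gata4, had the least Tm4sf5 (316.1 FPKM) and the most Tm4sf20 (284.1 FPKM), and the ratio of the 2 genes was 2.57 in replicate 3, 1.58 in replicate 2 and 1.11 in replicate 1. Tm4sf4 was flat over these libraries, between 46.9 and 54.4 FPKM, while Fabp6 spanned 24.8-fold. Across all 11 libraries the correlation of log2 values of Tm4sf4 with Fabp6 was -0.943, and with Gata4 0.804. After taking out the group means it was 0.152 and 0.144, so the pooled figure is the gap between ND and the rest. For Tm4sf5 and Gata4 the figures were 0.773 over all libraries and 0.733 within groups, or 0.981 and 0.937 without HLJDD replicate 2 and HFD replicate 1. Where along the gut each library was taken is not given, so region and group cannot be told apart.

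**Figure D4:**
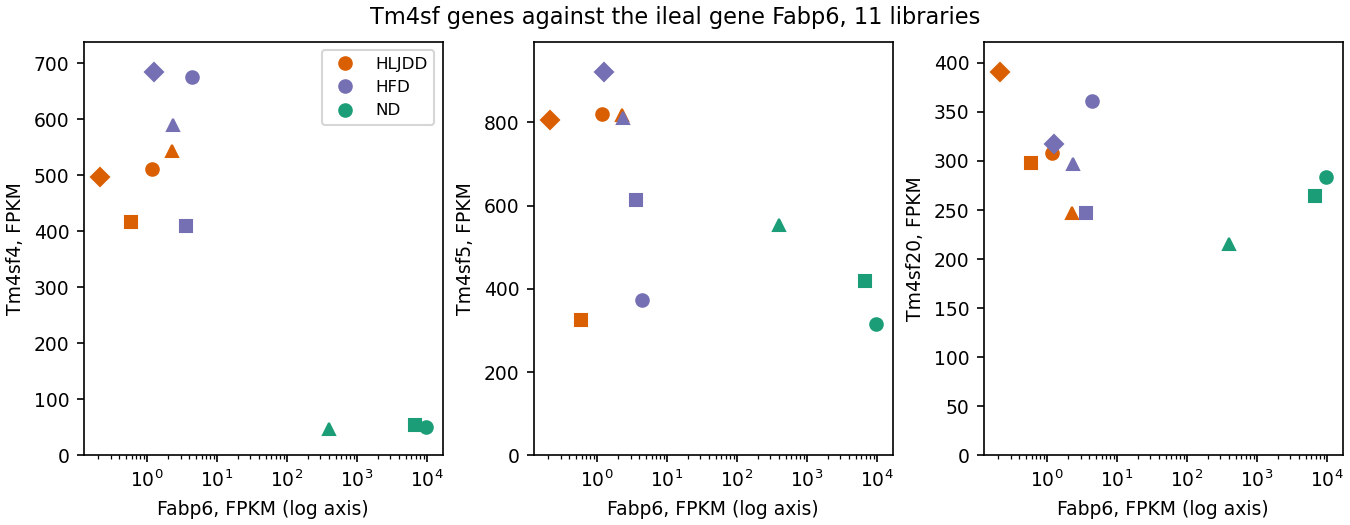
FPKM of Tm4sf4, Tm4sf5 and Tm4sf20 (vertical axes, from 0) against FPKM of the ileal gene Fabp6 (horizontal, log axis) in the 11 libraries, with colour for the group and shape for the replicate number. In the 3 ND libraries Fabp6 runs from 396.8 to 9822 FPKM while Tm4sf4 stays between 46.9 and 54.4 FPKM.

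Markers of the cells that could carry these transcripts were measured beside them. Summed over 14 epithelial markers, the level was 5183 to 7555 FPKM in HLJDD, 5521 to 7819 FPKM in HFD and 7144 to 7565 FPKM in ND, with 0 of 14 called higher against ND, 4 (28.6%) called lower in HFD, where 11.5% of all genes were, and 3 (21.4%) in HLJDD, where 7.79% were (after scaling 1 was higher in HFD). The epithelial genes Epcam (adhesion) and Vil1 (brush border) were among those not called. Epcam differed from ND by -0.58 (SE 0.23) in HFD and -0.52 (SE 0.23) in HLJDD, and Vil1 by -0.06 (SE 0.19) and -0.13 (SE 0.19). The 4 called lower in HFD, named after their values were seen, were Cldn7, Ezr, Klf5 and Hnf4a. All of them except Klf5 were also called lower in HLJDD. Those calls changed with single libraries, with 1 left in HFD without ND replicate 1 or ND replicate 2, 2 without HFD replicate 1, HFD replicate 3 or ND replicate 3, and 0 in HLJDD without HLJDD replicate 4 or any 1 ND library and 1 without HLJDD replicate 1. Within groups Tm4sf5 moved with Vil1 (r = 0.928 over 11 libraries) and Epcam (r = 0.872), or 0.597 and 0.690 after scaling. Without HLJDD replicate 2 and HFD replicate 1 these within-group figures were 0.826 for Vil1 and 0.407 for Epcam (9 libraries).

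Goblet cells secrete the mucus of the gut, and leukocytes fill its lamina propria. The 8 goblet cell markers summed to 3073 to 3992 FPKM in HLJDD, 4192 to 4713 FPKM in HFD and 1270 to 2293 FPKM in ND, with all HLJDD and HFD libraries above ND. Of these, 3 rose and 0 fell in each comparison with ND (37.5% of the 8, against 5.06% of all genes called higher in HFD and 4.10% in HLJDD). The 3, named after their values were seen, were Tff3, Fcgbp and Zg16, which encode proteins of the mucus layer. Muc2 was not called (limma adjusted p = 0.295 for HFD and 0.405 for HLJDD against ND, or 0.0348 and 0.0819 after scaling). Clca1, Agr2, Spink4 and Spdef were not called either. Zg16 averaged 2267 FPKM in HLJDD, 2901 FPKM in HFD and 910.5 FPKM in ND, more than any other listed goblet marker, so the sums rest largely on it. Leukocyte markers summed to 127.7 to 325.9 FPKM in HLJDD, 132.5 to 294.0 FPKM in HFD and 56.7 to 78.6 FPKM in ND, and 0 of the 6 past the filter were called, though 2 were without HFD replicate 4 (in HFD) or without HLJDD replicate 2 (in HLJDD), and 1 without HLJDD replicate 4. Without both HLJDD replicate 2 and HFD replicate 1, 3 were called higher in HLJDD and 2 in HFD. Calls rose over all genes in that setting, to 1264 higher in HLJDD and 1007 in HFD, against 441 and 545 with all libraries. After scaling 2 leukocyte markers were called higher in HFD, where 12.6% of all genes were, and 0 in HLJDD, where 9.39% were.

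Liver and pancreas also express L6 genes. The 8 measured hepatocyte markers summed to 16.2 to 27.7 FPKM in HLJDD, 12.2 to 15.5 FPKM in HFD and 5.69 to 6.497 FPKM in ND. Of the 3 past the filter, Ttr and Hp rose in HFD against ND, and Ttr, Hp and Trf rose in HLJDD against ND (named after their values were seen). Of all genes, 5.06% were called higher in HFD and 4.10% in HLJDD. Ttr and Hp were under 1 FPKM in ND, so they passed the filter only through HFD and HLJDD. Their rises are therefore a description only. Hp, which encodes the plasma protein haptoglobin, averaged 10.1 ± 4.19 FPKM in HLJDD, 4.10 ± 2.11 FPKM in HFD and 0.307 ± 0.0415 FPKM in ND (SD, n = 4, 4 and 3). Ttr, a thyroid hormone carrier, averaged 2.44 ± 0.494 FPKM in HLJDD, 2.54 ± 0.810 FPKM in HFD and 0.675 ± 0.0171 FPKM in ND (SD, n = 4, 4 and 3). Alb, the liver's albumin gene, had 0.205 to 0.381 FPKM in HLJDD, 0.216 to 3.06 FPKM in HFD, highest in HFD replicate 1, and 0.193 to 0.326 FPKM in ND. Pancreatic markers summed to 4.61 to 7.71 FPKM in HLJDD, 3.77 to 7.68 FPKM in HFD and 3.90 to 5.30 FPKM in ND, with 7 of 8 under 1 FPKM in all libraries of each group. The part of any of these cell types in the Tm4sf4 values was not tested.

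For Tm4sf1 the relevant cells are those of vessels and of the outer lining. The 12 endothelial markers summed to 9.92 to 40.3 FPKM in HLJDD, 14.5 to 21.3 FPKM in HFD and 13.9 to 24.1 FPKM in ND, and 0 of the 9 past the filter were called in any comparison, with 1 called against ND in HLJDD without HLJDD replicate 2. Cdh5, the cadherin of endothelial junctions, had a correlation of 0.809 with Tm4sf1 within groups, 0.874 after scaling and 0.832 without HLJDD replicate 2 and HFD replicate 1. In the same order the figures were 0.643, 0.670 and 0.805 for the endothelial gene Pecam1, and 0.553, 0.278 and 0.682 for the mesothelial gene Msln. The 8 mesothelial markers summed to 26.4 to 43.9 FPKM in HLJDD, 16.8 to 43.9 FPKM in HFD and 40.3 to 55.6 FPKM in ND. Of these, 1 of 5 past the filter, Upk1b, fell against ND in both groups, and it is also a tetraspanin gene. Of all genes, 11.5% were called lower in HFD and 7.79% in HLJDD. Msln was not called, at 0.12 (SE 0.44) for HFD minus ND and 0.13 (SE 0.44) for HLJDD minus ND. Upk3b, Krt7 and Gpm6a had negative differences in both and were not called either. Krt7 averaged 22.9 FPKM in HLJDD, 21.8 FPKM in HFD and 32.0 FPKM in ND, more than any other listed mesothelial marker, so the sums rest largely on it. The part of either cell type in the Tm4sf1 values was not tested.

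Tetraspanins are the larger family with the same 4-pass outline, and they organise receptors and integrins in the membrane. Of 31 listed, 30 were measured and 25 passed the filter. In HFD against ND, 2 rose and 8 fell, or 40.0% of the 25 against 16.6% of all genes (5.06% higher and 11.5% lower), and their median log2 difference was -0.35 against -0.205 for all genes. In HLJDD against ND, 2 rose and 8 fell (40.0%, against 11.9% of all genes, 4.10% higher and 7.79% lower), with a median of -0.41 against -0.127, and in HLJDD against HFD 0 of 25 were called. The tetraspanins called lower lay in the direction opposite to Tm4sf4. Scaled values gave 3 higher and 10 lower in HFD, where 12.6% of all genes were called higher and 12.5% lower, and 2 higher and 9 lower in HLJDD, where the shares were 9.39% and 9.88%.

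Tspan1 and Tspan8, both known from gut epithelium, had the widest falls. Tspan1 had a median of 3.95 FPKM in HLJDD (2.11 to 6.31), 2.95 FPKM in HFD (1.19 to 3.85) and 18.7 FPKM in ND (10.5 to 22.5). All HLJDD and HFD libraries were below ND for this gene, as they were for 32.9% of all genes in HFD and 21.3% in HLJDD. Its log2 difference from ND was -2.29 (SE 0.34, limma adjusted p = 0.00136) for HFD and -1.85 (SE 0.34, limma adjusted p = 0.00502) for HLJDD. Tspan8 had 135.6 ± 65.6 FPKM in HLJDD, 100.6 ± 35.1 FPKM in HFD and 378.8 ± 67.4 FPKM in ND (SD, n = 4, 4 and 3; limma adjusted p = 0.0238 for HLJDD and 0.00733 for HFD against ND). Cd82, a metastasis suppressor that binds integrins, had 93.9 ± 14.0 FPKM in HLJDD, 97.8 ± 7.84 FPKM in HFD and 158.7 ± 13.4 FPKM in ND (limma adjusted p = 0.00637 for HLJDD and 0.00845 for HFD against ND). Upk1b, a uroplakin of urothelium and mesothelium, fell to 2.73 ± 1.31 FPKM in HLJDD (limma adjusted p = 0.0111) and 2.09 ± 0.758 FPKM in HFD (0.00348), against 7.11 ± 0.679 FPKM in ND. These 4 genes were the calls of HFD against ND that held whichever single HFD or ND library was left out. The other 6, Tspan13 and Tspan31 (higher) and Tspan3, Tspan12, Tspan17 and Cd9 (lower), were all lost both without ND replicate 1 and without ND replicate 2, and without HFD replicate 3 the count was 6. For HLJDD against ND the count was 2 (Tspan1 and Cd82) without ND replicate 1 or without ND replicate 2, 3 without HLJDD replicate 4 and 5 without HLJDD replicate 1. The range of adjusted p over the alternatives was 0.00604 to 0.117 for Tspan8 and 0.00278 to 0.0621 for Upk1b in that comparison.

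**Figure D5:**
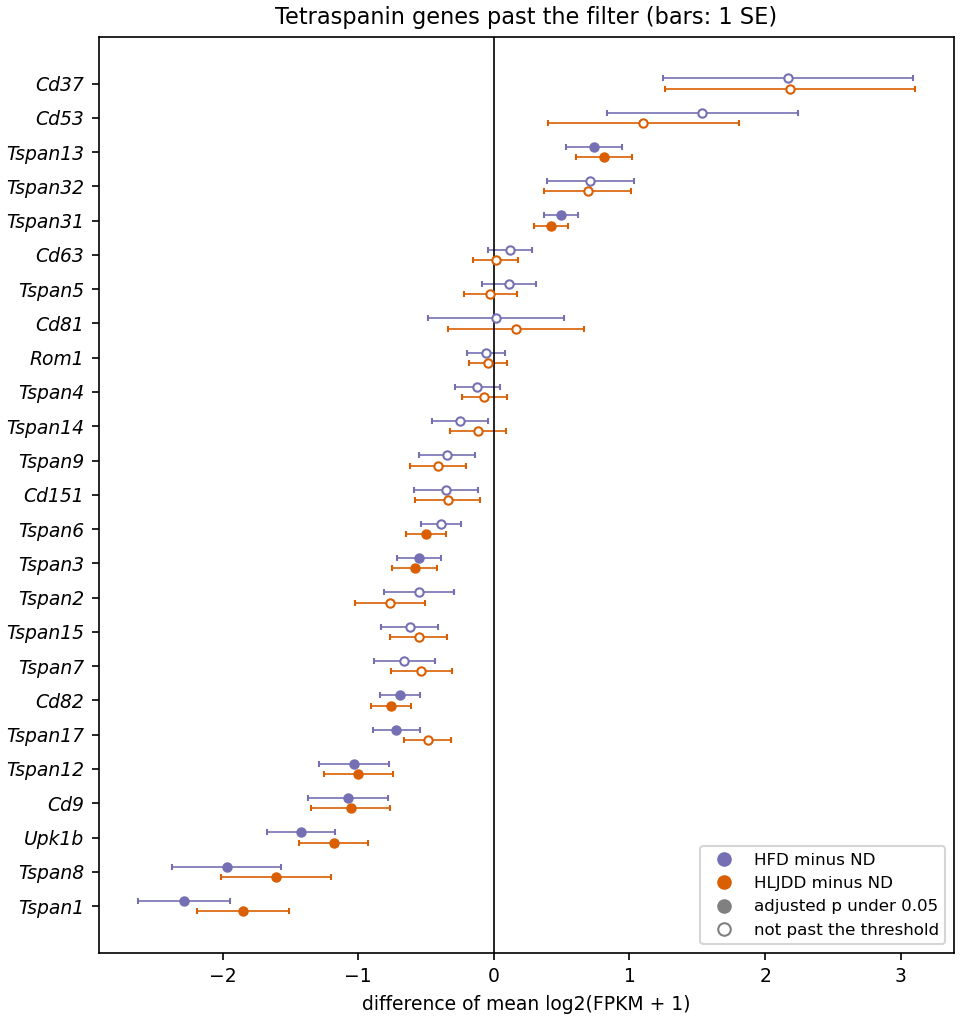
Difference of group means of log2(FPKM + 1) against ND (horizontal axis, bars of 1 SE) for the 25 tetraspanin genes past the filter, ordered by HFD minus ND; filled points have a limma adjusted p under 0.05. In each comparison 8 genes are filled left of 0 and 2 right of it.

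Proteins reported to bind or act with L6 members, mostly in human cells, gave few calls. Of 13 listed (Cd151 is in the tetraspanin list as well), 11 passed the filter. In HFD against ND, 2 fell (18.2% of 11), where 11.5% of all genes fell and 16.6% were called in either direction. In HLJDD against ND, 1 fell (9.09%), where 7.79% of all genes fell and 11.9% were called. In HLJDD against HFD 0 were called. Scaled values gave 1 higher and 2 lower in HFD against ND, where 12.6% of all genes were called higher and 12.5% lower. In HLJDD against ND they gave 1 and 1, where the shares were 9.39% and 9.88%. Itga2, the collagen-binding integrin alpha chain, had 1.93 ± 0.461 FPKM in HLJDD, 2.03 ± 0.897 FPKM in HFD and 4.29 ± 1.09 FPKM in ND (SD, n = 4, 4 and 3; limma adjusted p = 0.0356 for HLJDD and 0.0313 for HFD against ND). Ptk2, which encodes focal adhesion kinase, had 2.98 ± 0.554 FPKM in HFD and 4.78 ± 0.440 FPKM in ND (limma adjusted p = 0.0334). Without ND replicate 1, without ND replicate 2 or without HFD replicate 1, 0 of these were called in HFD against ND, and 1 without any other single HFD or ND library. The HLJDD call of Itga2 was lost without HLJDD replicate 1, 2 or 4 and without ND replicate 1 or 2. In HLJDD against HFD the smallest p-values were those of Creb3l1, the factor that TM4SF20 restrains (2.99 ± 0.916 FPKM in HLJDD and 3.76 ± 0.193 FPKM in HFD), and Ptk2 (3.64 ± 0.708 and 2.98 ± 0.554 FPKM), both with a limma adjusted p of 0.999.

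Each L6 gene had a different set of genes closest to it in pattern, by Pearson's r of log2(FPKM + 1) over the 11 libraries. Closest to Tm4sf4 were Ltc4s (0.991), Pmepa1 (0.981), Cdip1 (0.981), Gata6os (0.978) and Cldn4 (0.977). Of these Ltc4s, the leukotriene C4 synthase gene, averaged 35.0 FPKM in HLJDD, 40.3 FPKM in HFD and 3.89 FPKM in ND, and the tight junction gene Cldn4 averaged 94.3 FPKM in HLJDD, 112.4 FPKM in HFD and 17.5 FPKM in ND. Both share with Tm4sf4 the gap between ND and the rest. Around group means the closest were Pard6b (0.969), Camk2b (0.947) and Ppp2r2d (0.885).

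Closest to Tm4sf5 were Lpar5 (0.992), Tmed4 (0.986), Slc7a8 (0.983), Atp5c1 (0.983) and Ckmt1 (0.981), and around group means Bsg (0.998), Coq9 (0.996) and Mtch2 (0.995). Without the 2 libraries of high mitochondrial share the last 3 stood at 0.994, 0.982 and 0.977. Slc7a8 encodes an amino acid transporter, Ckmt1 a mitochondrial creatine kinase and Bsg basigin, a chaperone of lactate transporters. Tm4sf20 had looser neighbours, namely Mapre3 (0.906), Pde8a (0.895), Insig1 (0.889), Plscr4 (0.886) and Aqp7 (0.879), and around group means Mapre3 (0.934), Tubb2a (0.919) and Irf9 (0.915). Those of Tm4sf1 were Fryl (0.950), Aspg (0.939), Miga1 (0.934), the tetraspanin Cd9 (0.932) and Fhl1 (0.929), with Aspg (0.960), Mlph (0.936) and Nrep (0.926) around group means. After scaling 6 of the 20 genes over all libraries were again among the nearest 5, which were Ltc4s, Cdip1 and Cldn4 for Tm4sf4, Mapre3 for Tm4sf20, and Miga1 and Aspg for Tm4sf1. None of the Tm4sf5 neighbours was kept. These correlations describe 11 libraries that share groups and depth, chosen as the highest among 10314 genes.

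Among themselves the members were loosely tied. The correlation around group means was 0.235 for Tm4sf4 with Tm4sf5, 0.479 for Tm4sf4 with Tm4sf20 and -0.242 for Tm4sf5 with Tm4sf20, and after scaling -0.239, 0.739 and -0.489. Without the 2 libraries of high mitochondrial share they were 0.462, 0.379 and -0.128. Of these 3, that of Tm4sf4 with Tm4sf20 was the only one positive in all 3 settings. Tm4sf1 ran against the other members, from -0.122 to -0.656 as deposited, from -0.190 to -0.551 after scaling and from -0.128 to -0.587 without those 2 libraries.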

How the data were processed

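Small intestine RNA of 11 mouse libraries was sequenced. Per the labels' protocols, TRIzol served for extraction and a VAHTS Universal V6 kit for the libraries. Per the submitters' processing notes, fastp, HISAT2, HTSeq and R 3.2.0 were used with the mm10 genome. The sources used here do not give the annotation, strand setting or other versions. The authors deposited FPKM per gene symbol. Whole reads were recovered from the FPKM steps for 100.0% of 24294 symbols (within 0.002 reads), which gave the depth.

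Libraries were grouped by title. Groups were compared on log2(FPKM + 1) with limma 3.58.1 (R 4.3.3), variance trend, 1 fit of all 11 libraries, two-sided, Benjamini-Hochberg adjusted over 10764 genes (1 FPKM or more in 3 or more libraries), threshold 0.05. The fit was tested on simulated data. The members, gene lists and markers were chosen with earlier results of these data known, so members get no p-value. Named genes are the members, Tm4sf19 and genes next to members. Per family list and comparison, up to 4 called genes with the smallest adjusted p were named (otherwise the 2 smallest p). The 5 nearest genes per member (3 around group means) were named too. Of 13 markers planned for naming, Apoa4, Acta2 and Ptprc are not described. Other markers were named after their values were seen, as were tetraspanins whose calls were lost. Alternatives were another pseudocount, other filters, TPM, median-ratio and quantile scaling, 2-group fits, a replicate block, limma-voom on recovered reads and leaving libraries out. Single libraries were left out only from the groups compared.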

Additional observations from a re-analysis of the deposited data

Results flagged for a closer look

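In a group of 4, a library is given here where its gap to the nearest other library is a larger part of the group's range than Dixon's 95% value. That happens by chance in about 1 group in 20, and 7 such values came from 32 groups examined, 2 of them in HFD replicate 1 and 4 in HLJDD replicate 2. In HLJDD replicate 2, Tm4sf5 was 325.9 FPKM against 806.3 to 820.7 FPKM in the other HLJDD libraries. The summed level of the 4 genes there was 1041 FPKM against 1608 to 1694 FPKM. Tm4sf5 made up 31.3% of that sum in HLJDD replicate 2, against 47.6% to 50.8%, and Tm4sf4 was 1.28 times Tm4sf5, against 0.616 to 0.664 times. In HFD replicate 1, Tm4sf5 made up 26.4% of the sum, against 47.7% to 48.2%, and Tm4sf4 was 1.81 times Tm4sf5, against 0.667 to 0.743 times. These 2 libraries have the highest mitochondrial shares, 40.7% and 32.4%. In HFD replicate 2, Tm4sf1 made up 0.111% of the sum, against 0.0476% to 0.0582% in the other HFD libraries. The cause of these values was not tested.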

How the results depend on the processing

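The sign of each member's difference from ND was kept under all 16 or 17 alternatives per gene, Tm4sf4 between 3.37 and 3.73 for HFD and 3.16 and 3.41 for HLJDD. For HLJDD against HFD the sign of Tm4sf4 was kept in 18 of 18 alternatives, while it changed in 6 of 18 for Tm4sf5, 3 of 18 for Tm4sf20 and 8 of 17 for Tm4sf1. With a mean of at least 5 FPKM required, Tm4sf1 was not kept and has no value. Median-ratio scaling moved HFD minus ND to 3.73 for Tm4sf4 and 0.502 for Tm4sf20. Tm4sf1 against ND was -0.75 in HFD and -0.74 in HLJDD with a pseudocount of 0.1, and -0.81 and -0.81 with limma-voom. The calls of HFD against ND (1786) were 2695 after median-ratio scaling, 2804 after quantile normalization, 1080 with the replicate block, 3349 without the 2 libraries of highest mitochondrial share, and 617 to 1735 leaving out 1 library. In the same order the calls of HLJDD against ND (1279) were 2074, 2297, 724, 2556 and 435 to 1560. As deposited 545 genes were higher and 1241 lower in HFD than in ND, and 441 and 838 in HLJDD, against 1351 and 1344, and 1011 and 1063, after median-ratio scaling. For HLJDD against HFD 1 gene was called without those 2 libraries, and 0 to 1 leaving out 1 library. Tetraspanins called in HFD against ND (10) were 6 with no filter, 6 with the block and 4 to 11 leaving out 1 library. In HLJDD against ND (10) they were 4 with no filter, 6 with TPM, 5 with the block and 2 to 11 leaving out 1 library. Partners called in HFD against ND (2) were 0 with no filter, a mean of 5 FPKM or the block, 1 with TPM and 0 to 1 leaving out 1 library. In HLJDD against ND (1) they were 0 with a pseudocount of 0.1, no filter, a mean of 5 FPKM or the block, 2 with median-ratio or quantile scaling and 0 to 1 leaving out 1 library. Scaling kept 6 of 20 nearest genes. The correlations without 2 libraries were added after seeing the data. Over the called tetraspanin and partner genes and the marker lists, 779 alternative values stayed as reported, 67 moved, 110 lost the call and 0 reversed. The causes were not tested. The labels do not say whether same-numbered libraries were paired. Correlations of their deviations ran from -0.264 to 0.366. Deviations from means of 3 or 4 libraries cannot settle the question, so the block served as an alternative only.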
